A study of Homo sapiens with 8 samples.

Results

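Binding of SOX2, OCT4 and NANOG at the genes LIN28A, LIN28B and TRIM71 was read from the peak lists of chromatin immunoprecipitation with sequencing (ChIP-seq) in 2 human pluripotent lines. A peak belonged to a gene where the deposited list named that gene on either side of the peak at a distance of at most 50 kb from its transcription start. The rule found 63 of 201619 peaks, with 15 at LIN28A, 12 at LIN28B and 36 at TRIM71. NT2/D1 is an embryonal carcinoma line from a human germ cell tumour, and H9 is an embryonic stem cell line. No treatment, age or genotype is given in the labels for either line. The labels name 8 samples, with 1 library for each of SOX2, OCT4, NANOG and IgG (an unspecific antibody used as background) in each line. The 6 lists of the factors are described, and the IgG libraries enter through them as the background. Each group is 1 library, so the differences given have no replicate error and were not tested.

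The NT2/D1 libraries had 10218752 to 23160564 unique tags, and the H9 libraries had 54046559 to 77649240. The median score was 36.1 to 36.7 in the NT2/D1 lists and 41.99 to 51.5 in the H9 lists. At the lower depth of NT2/D1, a site without a called peak is not shown to be unbound. The NT2/D1 SOX2 and NANOG lists were called against an IgG library in which 17.1% of the tags were unique, against 52.4% for NT2/D1 OCT4 and 68.9% for the H9 lists. The file headers give 17173085 control tags in all for NT2/D1 SOX2 and NANOG, but 12359411 for NT2/D1 OCT4. The labels name 1 NT2/D1 IgG sample, and which of these controls it is was not worked out. Within NT2/D1, OCT4 scores and folds thus do not share their background with those of SOX2 and NANOG. For the NT2/D1 OCT4 and NANOG libraries the source names are exchanged relative to the titles, and the titles are followed here. Peak lists hold no expression values, so the labelled cell types could not be checked through marker genes. Tag counts are raw counts of ChIP tags in a peak, and their 95% exact Poisson intervals cover counting error only. Fold (over background) and score are the authors' values, and a score percentile is the share of peaks of the same list with a lower score.

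LIN28A and LIN28B are RNA-binding proteins of early embryos and stem cells that bind the precursors of let-7 microRNAs and block their maturation. Let-7 microRNAs promote differentiation and repress, through sites in their messenger RNAs, many growth and embryonic genes, among them the LIN28 genes themselves and TRIM71. TRIM71, the vertebrate relative of the worm gene lin-41, is an RNA-binding protein of the TRIM-NHL family that is found in pluripotent cells and early embryos. SOX2, OCT4 and NANOG are DNA-binding factors that maintain the pluripotent state. The microRNAs that link the 3 genes are shown for their common seed, the bases that pair with a target. RefSeq (GRCh38.p14) gives 9 distinct mature 5p sequences for 12 let-7 and miR-98 genes, and all 9 have the same seed. In these 4 examples the capitals mark the seed, bases 2 to 8, and the first base of let-7d differs from the others.
hsa-let-7a-5p: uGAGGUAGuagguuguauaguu
hsa-let-7d-5p: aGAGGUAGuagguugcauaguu
hsa-let-7g-5p: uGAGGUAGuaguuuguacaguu
hsa-miR-98-5p: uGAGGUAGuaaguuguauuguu

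All 3 genes had at least 1 peak in each of the 6 lists. Over all 19704 genes that the lists name, 11.5% had a peak in all 6. By list, a peak within 50 kb was found for 55.0% of these genes in NT2/D1 SOX2, 75.7% in NT2/D1 OCT4 and 55.2% in NT2/D1 NANOG. In the H9 lists the shares were 33.5% (SOX2), 55.3% (OCT4) and 54.0% (NANOG). A single peak near a gene was thus common in most of these lists.

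A peak at or above the 90th score percentile was less common, and 12 of the 18 pairs of gene and list had one. In NT2/D1 it was found at 3 of the 3 genes for SOX2, where 10.4% of all genes had one, at 2 for OCT4 (12.8% of all genes) and at 1 for NANOG (9.86%). In H9 it was found at 2 of the 3 genes for SOX2 (4.36% of all genes), at 2 for OCT4 (6.84%) and at 2 for NANOG (7.28%). In all 6 lists together it was found at TRIM71 alone of the 3, and at 1.08% of all genes.

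**Figure D1:**
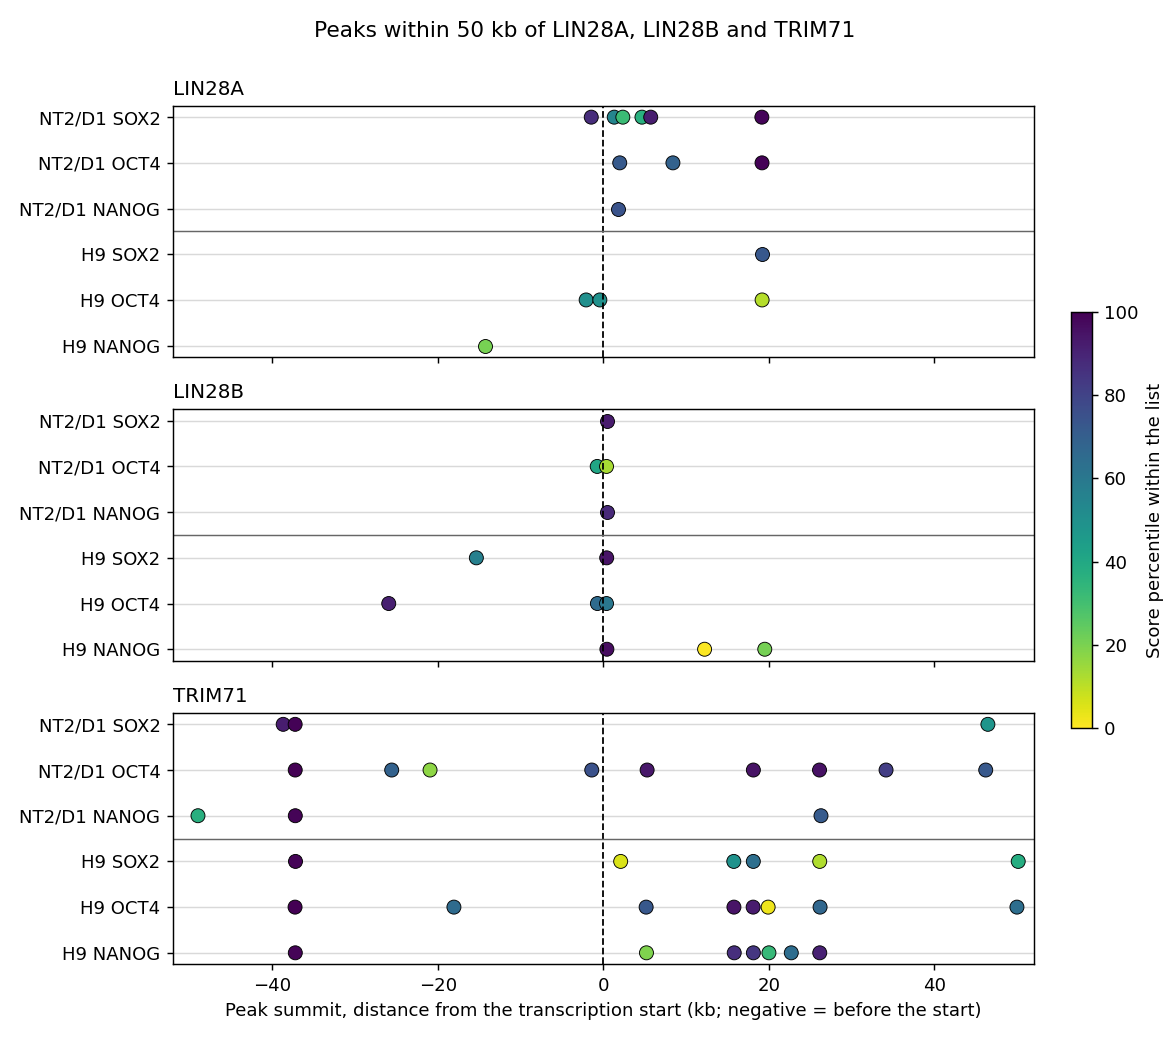
Position of each peak summit relative to the transcription start (x axis, kb) for the 3 genes, with 1 line of points per list and the NT2/D1 lists above the H9 lists. Colour gives the score percentile within the list. The darkest column of points, 37 kb before TRIM71, is present in all 6 lists.

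TRIM71 had its highest-ranked peak at 1 place. The strongest peak in every list lay at the same place, 37.2 to 37.3 kb before the start (hg19, chromosome 3, summits at 32822257 to 32822311). In NT2/D1 this peak held 62 tags for SOX2 (95% interval 47.5 to 79.5), 103 for OCT4 (84.1 to 124.9) and 45 for NANOG (32.8 to 60.2). In H9 it held 316 tags for SOX2 (282 to 353), 252 for OCT4 (221.8 to 285) and 392 for NANOG (354 to 433). In each of the 6 lists it held more tags than any other TRIM71 peak. The fold of these SOX2, OCT4 and NANOG peaks was 13.2, 13.8 and 12.7 in NT2/D1, and 15.1, 10.7 and 26.7 in H9. In NT2/D1 it was the 228th of 38423 SOX2 peaks, the 117th of 46169 OCT4 peaks and the 271st of 34208 NANOG peaks. In H9 it was the 179th of 19349 SOX2 peaks, the 55th of 29575 OCT4 peaks and the 288th of 33895 NANOG peaks. The lowest score percentile of the 6 was 99.07, in H9 SOX2.

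Few genes shared this rank. Only 22 of 19704 genes (0.112%) had a peak at or above the 99th percentile within 50 kb in all 6 lists, among them TRIM71, POU5F1, which encodes OCT4, and TERF1, a telomere-binding factor gene. Some of these genes are neighbours that count the same peak. Of 1218 regions that held a peak of every list, the TRIM71 site was the 27th by its lowest score percentile. From each list the peak with its summit nearest the median of the site was taken, and these 6 summits lay within 54 bp of each other. This left out a further NT2/D1 SOX2 peak of the site, with 18 tags (percentile 91.8) and its summit 38.7 kb before the start. The same choice was made in all regions. The median span of the summits over the 1218 regions was 66 bp, with quartiles of 42 and 119 bp, so the closeness at TRIM71 was typical of such regions. No other gene was named nearer to this site: CNOT10, a subunit of the CCR4-NOT deadenylase complex, was the gene on its other side at 94.2 to 95.3 kb.

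The remaining TRIM71 peaks lay mostly after its start, along a stretch from 1.36 to 50.6 kb, more so in H9 than in NT2/D1. Before the start, NT2/D1 had summits at 49.0 kb for NANOG, 38.7 kb for SOX2, and 25.6, 20.9 and 1.39 kb for OCT4. H9 had 1 such peak, for OCT4, at 18.05 kb. A site 18.1 kb after the start was called for all 3 factors in H9 and for OCT4 in NT2/D1. It had 20 tags in NT2/D1 OCT4 (fold 14.3, percentile 95.05), against 58 tags in H9 OCT4 (fold 9.08, percentile 92.5). The H9 SOX2 and NANOG peaks there held 76 and 78 tags, with percentiles of 63.7 and 84.3. A site 26.1 to 26.3 kb after the start was called in 5 lists, all but NT2/D1 SOX2. In NT2/D1 it held 29 tags for OCT4 (percentile 95.5) and 29 for NANOG (percentile 71.7). In H9 it held 103 tags for SOX2 (percentile 12.03), 50 for OCT4 (percentile 66.9) and 187 for NANOG (percentile 90.7). At both sites the NT2/D1 OCT4 peak was above the 95th percentile of its list, and the H9 SOX2 peak had the lowest percentile of the 3 H9 factors.

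A site 5.18 to 5.30 kb after the start was called in both lines as well, with 19 tags for OCT4 in NT2/D1 (percentile 93.5), against 54 for OCT4 (percentile 72.8) and 44 for NANOG (percentile 19.4) in H9. In all, 4 of the 16 TRIM71 sites held peaks of both lines, 6 held NT2/D1 peaks alone and 6 held H9 peaks alone. A site 15.8 kb after the start held peaks of all 3 factors in H9, with 54 tags for SOX2, 91 for OCT4 (percentile 94.7) and 86 for NANOG (percentile 86.5), and no NT2/D1 peak. A site 46.2 to 46.5 kb after the start held an NT2/D1 SOX2 peak of 25 tags and an NT2/D1 OCT4 peak of 24 tags, and no H9 peak. The start itself, from 250 bp before to 50 bp after, was covered by no peak of any list. The nearest peaks were an NT2/D1 OCT4 peak of 12 tags ending 1207 bp before it and an H9 SOX2 peak of 52 tags beginning 1358 bp after it, at percentiles of 74.7 and 5.56.

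The number of TRIM71 peaks was high in 4 lists. NT2/D1 OCT4 had 9, a count that 0.152% of all genes reached. H9 had 6 for SOX2, 8 for OCT4 and 7 for NANOG, counts reached by 0.233%, 0.487% and 0.624% of genes. NT2/D1 SOX2 and NANOG had 3 each, which 16.3% and 15.8% of genes reached. The genes named on the other side of TRIM71 peaks, CNOT10 and CCR4, a chemokine receptor gene, had starts 83.0 to 131 kb away. Neither of these starts lay within the 100 kb around the TRIM71 start. The distances run to transcription starts, so they do not show whether the body of another gene reaches into that stretch. Gene spacing differs across the genome, and its part in these counts was not tested. The limit of 50 kb cut through a cluster. An H9 SOX2 peak of 54 tags at 49.6 kb and an H9 OCT4 peak of 49 tags at 49.9 kb were just inside it. Peaks of 82, 64 and 117 tags for SOX2, OCT4 and NANOG in H9, at 50.868, 51.323 and 51.006 kb, and of 19 tags for OCT4 in NT2/D1, at 51.6 kb, were just outside.

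**Figure D2:**
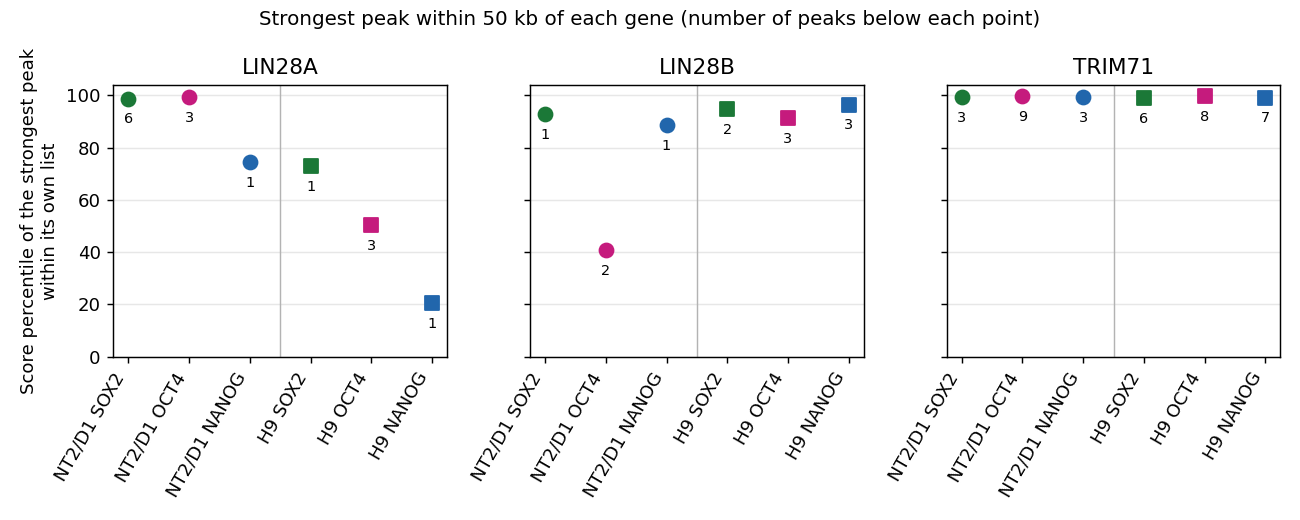
Score percentile within its own list (y axis) of the strongest peak within 50 kb of each gene, for the NT2/D1 lists (circles) and the H9 lists (squares), with the number of peaks under each point. TRIM71 is at or above 99.07 in all 6 lists, while LIN28A runs between 20.7 and 99.4 and LIN28B between 40.9 and 96.5.

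At LIN28B all 6 lists met just after the start. The summits lay 393 to 446 bp after it (hg19, chromosome 6, 105405315 to 105405368), within 53 bp of each other. In NT2/D1 the peaks were small, with 13 tags for SOX2 (95% interval 6.92 to 22.2), 5 for OCT4 (1.62 to 11.7) and 14 for NANOG (7.65 to 23.5). In H9 they held 165 tags for SOX2 (141 to 192), 41 for OCT4 (29.4 to 55.6) and 290 for NANOG (258 to 325). OCT4 had the fewest raw tags of the 3 factors in each line, but its NT2/D1 library also had the fewest unique tags, 10218752. The NT2/D1 peaks were 310, 198 and 493 bp wide for SOX2, OCT4 and NANOG. When tags are scaled to unique tags and divided by width, OCT4 is the highest of the 3 in NT2/D1 and the lowest in H9. The SOX2, OCT4 and NANOG peaks had score percentiles of 92.9, 13.0 and 88.6 in NT2/D1, and 94.7, 60.3 and 96.5 in H9. The fold was 9.37, 8.45 and 15.5 in NT2/D1, and 13.9, 5.71 and 21.3 in H9. The SOX2 and NANOG peaks of both lines ranked at a percentile of 88.6 or higher in their lists, and the OCT4 peaks ranked lower. If the source names were right in place of the titles, the NT2/D1 peak of 5 tags would be NANOG and that of 14 tags OCT4, so the low rank of OCT4 in that line rests on the titles.

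OCT4 had a separate peak before the LIN28B start in both lines. Its summit lay 0.731 kb before the start in NT2/D1, with 5 tags, a fold of 11.5 and a percentile of 40.9. In H9 it lay 0.708 kb before the start, with 51 tags, a fold of 3.76 and a percentile of 65.5. In both lines it ranked above the OCT4 peak after the start. SOX2 had no peak there in either line, and the H9 NANOG peak spanned the whole stretch from 1667 bp before to 1554 bp after the start. That NANOG peak was the only one of the 6 lists that covered the window from 250 bp before to 50 bp after the start. RefSeq gives 2 such windows for LIN28B in a later build, and the table does not say which of them has the start used in the deposited lists. They are shown because a peak covers the start itself, with capitals for ACAAAG, a sequence that SOX factors bind.
LIN28B, chr6:104940715-104941014, GRCh38.p14, plus strand: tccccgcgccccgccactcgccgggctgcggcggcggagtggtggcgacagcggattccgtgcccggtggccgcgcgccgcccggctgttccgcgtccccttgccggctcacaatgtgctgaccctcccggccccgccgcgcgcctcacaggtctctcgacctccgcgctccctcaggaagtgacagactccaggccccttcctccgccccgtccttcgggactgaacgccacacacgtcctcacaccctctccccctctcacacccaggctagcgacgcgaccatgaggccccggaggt
LIN28B, chr6:104956857-104957156, GRCh38.p14, plus strand: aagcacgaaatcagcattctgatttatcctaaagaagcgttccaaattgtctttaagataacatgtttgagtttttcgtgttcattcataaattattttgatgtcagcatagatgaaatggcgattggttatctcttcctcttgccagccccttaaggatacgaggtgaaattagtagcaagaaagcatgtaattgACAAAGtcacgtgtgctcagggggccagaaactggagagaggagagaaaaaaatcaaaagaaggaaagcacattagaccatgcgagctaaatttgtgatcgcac

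The windows differ in composition, with 73.0% G and C in the first and 39.0% in the second, beside a median of 58.7% over all 35116 windows of this length. On both strands they were searched for the octamer ATGCAAAT, for ACAAAG and for the SOX2-OCT4 composite motif with at most 2 mismatches, which overlaps the octamer. The second window held 1 match, ACAAAG beginning 54 bases before the start, and the first held none of the 3. Over all windows, 1.77% held the octamer, 16.1% ACAAAG and 7.0% the composite, so the match is a common one. The window of TRIM71, where no peak lay, held none of the 3 motifs.

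The other LIN28B peaks were in H9. An OCT4 peak 25.9 kb before the start held 59 tags, with a fold of 7.10 and a percentile of 91.3, and was the strongest OCT4 peak of the gene. A SOX2 peak lay 15.3 kb before the start with 47 tags (percentile 56.7). NANOG peaks 12.2 and 19.5 kb after the start, with 29 and 32 tags, were near the bottom of their list (percentiles of 0.590 and 20.7). No NT2/D1 peak lay at these sites. A further 65 peaks named LIN28B beyond the limit, as far as 2029 kb away. The genes on the other side of LIN28B peaks were HACE1, a ubiquitin ligase gene, at 97.2 to 116 kb, and BVES (POPDC1 in RefSeq), a gene of the Popeye domain family, at 180 to 205 kb.

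LIN28A had its highest-ranked peaks in NT2/D1. The strongest NT2/D1 SOX2 and OCT4 peaks lay 19.2 kb after its start, toward the neighbouring gene DHDDS, which encodes a dolichol synthesis enzyme. The DHDDS start was 2.03 to 2.12 kb from these peaks, so it was the nearer gene. In NT2/D1 the site held 37 tags for SOX2 (95% interval 26.1 to 50.9996) and 62 for OCT4 (47.5 to 79.5). In H9 it held 69 tags for SOX2 (53.7 to 87.3) and 46 for OCT4 (33.7 to 61.4). NANOG had no peak there in either line by the titles. The fold was 14.2 for SOX2 and 21.7 for OCT4 in NT2/D1, and 8.06 and 4.12 in H9. The score percentile was 98.8 for SOX2 and 99.4 for OCT4 in NT2/D1, and 73.0 and 10.9 in H9. The 4 summits lay within 32 bp (hg19, chromosome 1, 26756435 to 26756467). Counted to the nearer gene alone, the strongest LIN28A peak had a percentile of 91.8 for SOX2 and 72.2 for OCT4 in NT2/D1, and H9 SOX2 had no LIN28A peak. By the source names, the NT2/D1 factors at this site would be SOX2 and NANOG.

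Scaled to 1000000 unique tags of each library, the LIN28A site held 1.60 tags for SOX2 and 6.07 for OCT4 in NT2/D1, against 0.956 and 0.592 in H9. At the TRIM71 site 37 kb before the start, the scaled SOX2, OCT4 and NANOG tags were 2.68, 10.1 and 2.29 in NT2/D1, against 4.38, 3.25 and 7.25 in H9. At the LIN28B site after the start it was 0.561, 0.489 and 0.712 in NT2/D1, against 2.29, 0.528 and 5.37 in H9. Counted over whole peaks, SOX2 was thus higher in NT2/D1 at LIN28A and higher in H9 at LIN28B and TRIM71. The SOX2 peaks at TRIM71 and LIN28B were 681 and 310 bp wide in NT2/D1, against 1568 and 1393 bp in H9. When the scaled tags are also divided by peak width, SOX2 at these sites is higher in NT2/D1, so the direction depends on width. The peaks differ in width, and these differences have no error beyond counting.

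Near its start LIN28A had a group of NT2/D1 peaks that H9 lacked. SOX2 had peaks of 11, 22, 15 and 19 tags with summits 1.33, 2.37, 4.68 and 5.74 kb after the start, OCT4 had peaks of 34 and 19 tags at 1.99 and 8.42 kb, and NANOG had 1 peak of 17 tags at 1.74 kb. The SOX2 peak at 5.74 kb was the highest of them in its list (percentile 91.8), and the others ran from 32.0 to 74.5. With 6 peaks in all, NT2/D1 SOX2 had a count at LIN28A that 2.96% of genes reached. H9 had no peak between the start and the site at 19.2 kb. H9 OCT4 had 2 peaks before the start instead, with 94 tags at 2.07 kb (percentile 50.3) and 51 tags at 0.412 kb (percentile 49.97). The first of these overlapped an NT2/D1 SOX2 peak of 19 tags with its summit 1.45 kb before the start (percentile 87.2). The H9 NANOG list had 1 LIN28A peak, 14.3 kb before the start, with 19 tags and a percentile of 20.7. On the other side of the peaks before the LIN28A start, the lists name CD52, a leukocyte surface protein gene, at 78.4 to 92.3 kb.

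**Figure D3:**
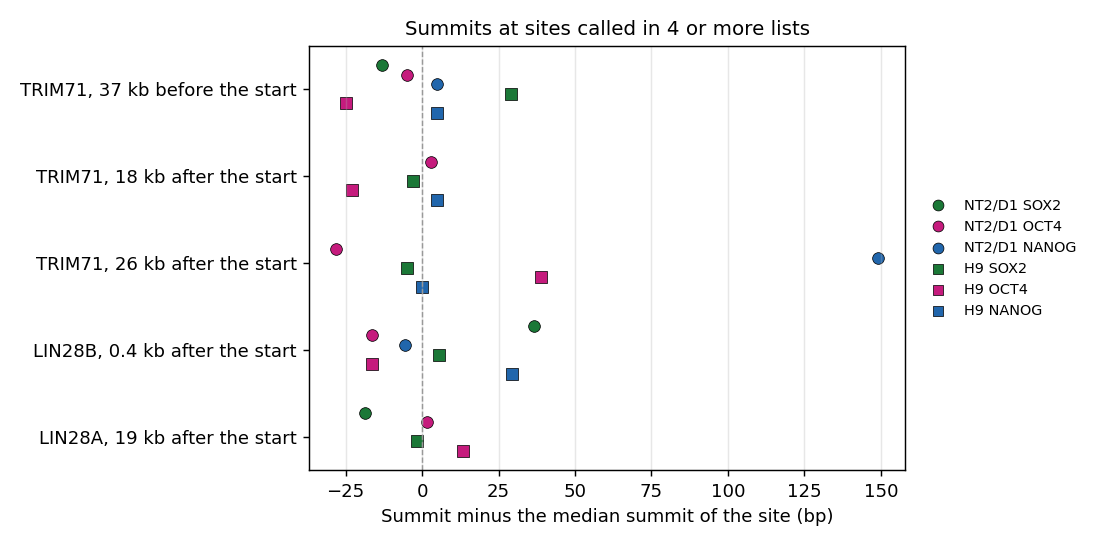
Summit of each list relative to the median summit of the site (x axis, bp) at the 5 sites called in 4 or more lists, with circles for NT2/D1 and squares for H9. At 4 of the sites the summits span 28 to 54 bp. At the TRIM71 site 26 kb after the start they span 177 bp, with NT2/D1 NANOG apart from the others.

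Regions with all 3 factors were compared within each line, merging peaks that overlapped by at least 1 bp. In NT2/D1 each gene had 1 such region, a state reached by 5.38% of all genes, and in H9 LIN28B had 1, TRIM71 had 4 and LIN28A had 0, where 16.8% of genes had at least 1. The TRIM71 site before the start and the LIN28B site after the start were such regions in both lines. The LIN28B region was lost in NT2/D1 in the upper 50% of each list by score and with lists of equal length, and in H9 with a reciprocal overlap of 50%. Under these 3 settings TRIM71 had 1 region in NT2/D1, and 2, 4 and 2 in H9. The LIN28A region of NT2/D1 lay 1.45 to 2.56 kb after the start, and its summits were 630 bp apart. The LIN28A region no longer held all 3 factors when summits had to lie within 200 bp, with a reciprocal overlap of 50%, in the upper 50% of each list by score, or with lists of equal length. At the LIN28A site 19.2 kb after the start, only SOX2 and OCT4 met in either line.

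Peaks of the 3 genes were shared between the lines at some sites only. Of the NT2/D1 peaks, 3 of 10 for SOX2, 7 of 14 for OCT4 and 3 of 5 for NANOG overlapped an H9 peak of the same factor, where 8.36%, 17.1% and 10.1% of all NT2/D1 peaks did. Of the H9 peaks, 3 of 9 for SOX2, 7 of 14 for OCT4 and 3 of 11 for NANOG overlapped an NT2/D1 peak of the same factor, where 16.2%, 26.1% and 9.83% of all H9 peaks did. Several of these peaks mark the same sites, and the sites at TRIM71 and LIN28B described above gave all 3 NT2/D1 NANOG matches. Merged over all lists, the 63 peaks formed 30 sites. Of these, 7 held peaks of both lines, 11 held NT2/D1 peaks alone and 12 held H9 peaks alone, and 18 were called in a single list.

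The balance of peaks between the lines differed by gene. Summed over the 3 factors, the raw counts had the direction of the share of all peaks on the chromosome at LIN28A and LIN28B, and the opposite one at TRIM71. The counts are not scaled to the length of the lists, while the shares are, so they are unlike measures. The NT2/D1 lists held 38423, 46169 and 34208 SOX2, OCT4 and NANOG peaks, against 19349, 29575 and 33895 in H9. LIN28A had 10 peaks in NT2/D1 and 5 in H9, LIN28B had 4 and 8, and TRIM71 had 15 and 21. The difference at LIN28A came from SOX2 alone, with 6 peaks against 1, as OCT4 had 3 in each line and NANOG 1. At LIN28B each factor had fewer peaks in NT2/D1. At TRIM71 SOX2 had 3 against 6 and NANOG 3 against 7, while OCT4 had 9 against 8, the direction of the chromosome share. Chromosome 1, which carries LIN28A, held 17.4%, 11.7% and 17.4% of all SOX2, OCT4 and NANOG peaks in NT2/D1, against 8.27%, 8.42% and 8.28% in H9. Chromosome 6, which carries LIN28B, held 1.98%, 4.02% and 1.98% in NT2/D1, against 7.17%, 6.42% and 6.57% in H9. Chromosome 3, which carries TRIM71, held 8.93%, 7.78% and 8.40% in NT2/D1, against 7.34%, 6.08% and 6.78% in H9. The part of these chromosome shares in the counts per gene was not tested. Of the NT2/D1 peaks, 4 held fewer than 10 tags, against 0 of the H9 peaks.

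Other genes of the let-7 axis were taken from lists of microRNA processing and decay genes, let-7 target genes, and TRIM-NHL and cold-shock domain relatives of the members. The deposited lists name all 37 of these genes. The 12 let-7 and miR-98 genes are not among the named genes and were not analysed here. A peak within 50 kb was found for 24 of 37 genes in NT2/D1 SOX2 (64.9%), 33 in NT2/D1 OCT4 (89.2%) and 28 in NT2/D1 NANOG (75.7%). In H9 SOX2 it was found for 15 (40.5%), in H9 OCT4 for 25 (67.6%) and in H9 NANOG for 24 (64.9%). In each list the share was above that of all genes, which was 55.0%, 75.7% and 55.2% in NT2/D1 and 33.5%, 55.3% and 54.0% in H9. It was so in all 6 lists for the let-7 targets, but not for the processing and decay genes or the relatives, as their counts below show. The difference was not tested, and the genes were chosen with earlier results of these data known. Of the 37 genes, 8 had a peak in all 6 lists, where 11.5% of all genes did.

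**Figure D4:**
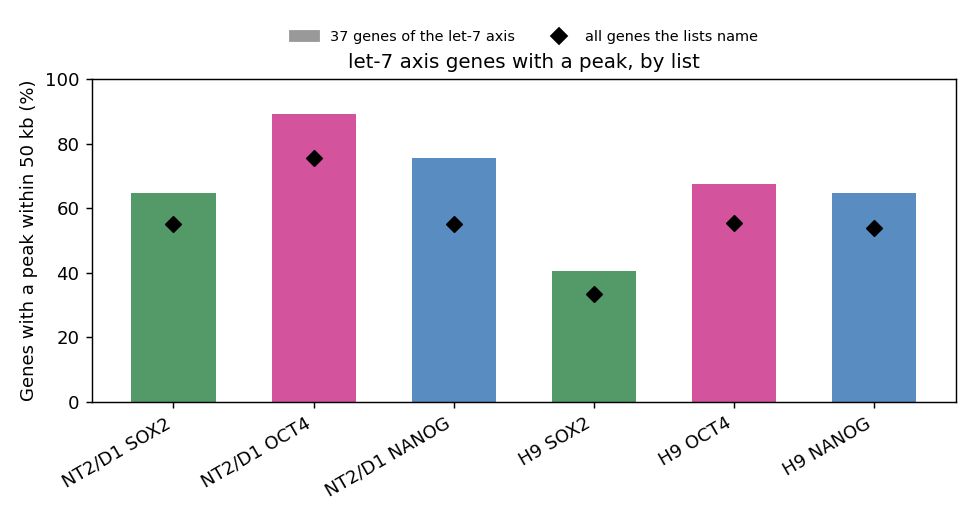
Share of the 37 let-7 axis genes with a peak within 50 kb (bars, y axis in percent) in each list, with NT2/D1 left of H9. Diamonds give the share over all 19704 genes named in the lists, from 33.5% in H9 SOX2 to 75.7% in NT2/D1 OCT4, and lie below the bar in each list. The difference was not tested.

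Among the 18 let-7 targets, a peak was found for 11, 18 and 16 with SOX2, OCT4 and NANOG in NT2/D1, and for 9, 15 and 13 in H9. Over all genes the shares were 55.0%, 75.7% and 55.2% in NT2/D1, and 33.5%, 55.3% and 54.0% in H9. Regions with all 3 factors lay at 3 of the 18 in NT2/D1 and 8 in H9, where 5.38% and 16.8% of all genes had one. The strongest SOX2, OCT4 and NANOG peaks of E2F2, a cell cycle factor gene, had percentiles of 86.7, 99.6 and 94.6 in NT2/D1, and 96.6, 98.2 and 97.9 in H9, at sites 24.1 to 25.4 kb from its start. ARID3B, a DNA-binding protein gene, had 98.4, 99.5 and 95.9 in NT2/D1, and 85.2, 98.6 and 92.8 in H9, at 8.69 to 9.24 kb. MYCN, an oncogene, had 98.97, 98.4 and 98.4 in NT2/D1, and 85.4, 91.3 and 95.7 in H9. All 18 of these percentiles were at or above 85.2. The genes were named because their highest percentiles led the 18 targets, so high values follow in part from that choice. The highest percentile of CDK6, the lowest of the 18 targets, was 57.6. NRAS, a GTPase gene named by the same rule, had OCT4 percentiles of 64.7 in NT2/D1 and 80.2 in H9, and no H9 SOX2 peak. Its strongest NANOG peak held 37 tags in NT2/D1, at 39.9 kb from its start, and 134 tags in H9, at 36.1 kb. NRAS was not the gene nearest to these NANOG peaks.

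Among the 12 processing and decay genes, a peak was found for 6, 9 and 8 with SOX2, OCT4 and NANOG in NT2/D1, and for 5, 6 and 8 in H9. The shares over all genes were 55.0%, 75.7% and 55.2% in NT2/D1, and 33.5%, 55.3% and 54.0% in H9. A region with all 3 factors lay at 0 of 12 in NT2/D1 and 2 in H9, beside 5.38% and 16.8% of all genes. TUT4 and TUT7, the enzymes that add uridines to let-7 precursors held by LIN28A, had their highest percentiles in NT2/D1, 96.5 for SOX2 at TUT4 and 94.4 for OCT4 at TUT7, where the peak of 17 tags overlapped the start. The TUT4 SOX2 peak lay 35.3 kb from the start. The other NT2/D1 percentiles were 15.9 for OCT4 and 85.8 for NANOG at TUT4, and 36.0 for SOX2 and 76.2 for NANOG at TUT7. In H9, NANOG had 63.2 at TUT4 and 82.6 at TUT7, and SOX2 had 74.1 at TUT7. No H9 SOX2 or OCT4 peak lay within 50 kb of TUT4, and no H9 OCT4 peak within 50 kb of TUT7, which holds for many genes. AGO1, an Argonaute gene, had peaks of all 6 lists, from 76.8 in H9 NANOG to 95.2 in NT2/D1 OCT4. KHSRP, whose protein aids let-7 processing, had peaks in NT2/D1 OCT4 alone, the strongest with 21 tags at 0.678 kb. DROSHA, the nuclear microRNA-processing enzyme, had no peak within 50 kb in any list.

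Of the 7 relatives, 7 had a SOX2 peak, 6 an OCT4 peak and 4 a NANOG peak in NT2/D1, where the shares over all genes were 55.0%, 75.7% and 55.2%. In H9 the counts were 1, 4 and 3, where the shares were 33.5%, 55.3% and 54.0%. TRIM2, a TRIM-NHL gene like TRIM71, had 2 SOX2 and 5 OCT4 peaks and no NANOG peak in NT2/D1, against 3 SOX2, 2 OCT4 and 4 NANOG peaks in H9. The strongest in NT2/D1 held 9 tags for SOX2, at 3.62 kb, and 14 for OCT4, at 37.8 kb. The strongest in H9 lay 1.92 to 2.06 kb from the start, with 108, 118 and 108 tags for SOX2, OCT4 and NANOG. YBX1 and YBX3, cold-shock domain genes, had no H9 SOX2 peak within 50 kb.

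The genes most like each member were found by their 6 highest score percentiles, 1 per list, with the largest of the 6 differences as the measure. TRIM71 was closest to PP12613 and TMEM155, which share their peaks and differed from it by at most 0.413 percentage points, and to CDX2, a trophectoderm and intestinal homeobox gene, at 0.476. LIN28B was closest to OPCML, at 6.93, to TNNI3K, at 7.09, and to CALCRL, at 9.65. LIN28A had no close match: the nearest were H2AC20, at 16.8, CDK14, at 20.3, and CLEC5A, at 20.7. These values rest on 6 libraries, and genes near the top of every list must lie close to each other on this measure.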

How the data were processed

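SOX2, OCT4 and NANOG ChIP-seq peak lists of NT2/D1 and H9 were used, 1 library each. Peaks were called with MACS against an IgG library, without pooling, at a p-value cutoff of 0.001, per the file headers. The version of MACS and the aligner are not given in the sources used here. Positions are in hg19, a build taken from the submitters' processing notes. The band width was 200 in NT2/D1 and 2000 in H9, and the model fold was 5 for NT2/D1 OCT4 and 3 otherwise, per the file headers, so peak widths and calls are not alike in the lines. The deposited tag count is a whole number of tags, not normalized. The deposited fold is a ratio over background and the deposited FDR, in percent, was not used. The deposited score, whose column name was overwritten, was read as −10 times the log10 of the p-value, since its lowest value was 30 in every list. Genes and distances were added by the submitters, per the file headers. Transcription starts were recovered from these distances, all of which gave the same position for each of the 3 genes.

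Genes were named through RefSeq accessions, of which 23834 of 25014 matched. The table is of another assembly and gave symbols alone. An overlap of 1 bp or more joined peaks into a site. Percentiles, counts and overlaps were computed with pandas 2.3.3 and scipy 1.17.1, and the overlap steps were tested on simulated peaks. Intervals are exact Poisson intervals at 95%. The members and gene lists were chosen with earlier results of these data known. Named were the members, the genes on the other side of their peaks, up to 4 genes per list with the highest percentile, and the 3 genes most like each member; DROSHA, POU5F1 and TERF1 were named after their values were seen. For 1 gene of the lists, values are not reported here.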

Additional observations from a re-analysis of the deposited data

How the results depend on the processing

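The 63 peaks became 23 with a limit of 10 kb in place of 50 kb, and the 12 of 18 pairs of gene and list with a peak at or above the 90th percentile became 5, because TRIM71, LIN28A and LIN28B peaks farther out were lost (for LIN28B the H9 OCT4 percentile became 65.5). With that limit the 149 pairs of let-7 axis gene and list became 92, the NT2/D1 peaks shared with H9 and the H9 peaks shared with NT2/D1, 13 each, became 5 each, and regions with all 3 factors numbered 3 in all, 1 of them in H9. Regions with all 3 factors, 8 in the main setting (3 in NT2/D1 and 5 in H9), numbered 4 in the upper 50% of each list by score (1 in NT2/D1 and 3 in H9), 1 in NT2/D1 with lists of equal length, and 4 with a reciprocal overlap of 50%, with 2 in H9. Shared peaks numbered 6 in each line with that overlap. Without the NT2/D1 SOX2 and NANOG lists, an alternative chosen after seeing the data, 48 peaks remained, 8 of 12 pairs reached the 90th percentile, and 7 peaks were shared in each line, as fewer lists were compared. The limit of 100 kb, the nearer gene alone and summits within 200 bp moved none of these summary counts by more than 1.5 times. Exchanging the NT2/D1 OCT4 and NANOG libraries only swaps their names, so among the summary counts it could change the shared peaks alone. With the exchange, the NT2/D1 peaks shared with H9 became 12, and the H9 peaks shared with NT2/D1 became 11. Of the 209 other values recomputed for single genes and lists, 168 kept within 1.5 times or their binomial interval and 41 moved, 16 of them with the limit of 10 kb and 8 with the exchanged libraries. A score percentile was left out of the 209, and not counted as moved, where the gene kept no peak in that list. With the limit of 10 kb this was so for TRIM71 in NT2/D1 SOX2 and NANOG, among others. No replicate could be left out with 1 library per group. No paired analysis was possible because each group had 1 library and the result comes from no test. NT2/D1 peaks of 5 to 14 tags, as at LIN28B, are at the limit of the depth.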
